A study of Homo sapiens with 22 samples.

Results

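RNA levels of HEK293T cells 6 h after a heat shock were compared with levels at the end of the heat shock, in cells that carried a scrambled siRNA. The comparison took in 8 of the 22 arrays of the series: the 4 labelled scrambled siRNA, heat shock and recovery, and the 4 labelled scrambled siRNA and heat shock. They were chosen by the column names of the deposited scanner table, and no measured value entered the choice. HEK293T, derived from human embryonic kidney, expresses the large T antigen of SV40. Cells of both groups had been transfected with the scrambled siRNA, grown at 37 °C and heated to 42 °C in a water bath for 1 h; the recovery group was then given 6 h, the heat shock group none. The study also had 4 untreated arrays with the scrambled siRNA, and a second arm transfected with siRNA against Satellite III (Sat III) transcripts, non-coding RNAs of pericentromeric repeats, with 3 untreated, 3 heat-shocked and 4 recovering arrays. The labels number the replicates and name no separate cultures, and p-values here reflect only array-to-array spread, which may be technical. Sat III itself had 0 named probes among 48803, and knockdown was not analysed here.

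Heat shock unfolds proteins and releases heat shock factor 1 (HSF1), which switches on genes for chaperones, the proteins that refold or hold damaged ones. Stress also raises immediate early genes, whose mRNAs are made within minutes and carry elements that make them short-lived, while many other genes are transcribed or spliced less. After return to normal temperature HSF1 is switched off again by the chaperones it induced, and each transcript then follows its own rates of synthesis and decay.

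Levels are normalised log2 intensities of 1 probe per gene, and changes are differences on that scale, recovery minus heat shock, with the standard error (SE) of a limma fit over all 22 arrays. A gene was called when its p-value, adjusted over all 10147 genes tested, was under 0.05. On each array 13176 to 14863 probes, or 27% to 30.5%, were detected at p under 0.01, and a gene that reached this on none of a group's 4 arrays has only a bound there, given as "at least". Of the markers of HEK293 cells, 9 of 11 were tested, with a mean level of 8.38 to 8.49 on the recovery arrays and 8.53 to 8.56 on the heat shock arrays; VIM was higher in recovery, and GATA3 and NEFM were lower. Only 3 of 14 epithelial, 3 of 9 fibroblast and 2 of 10 immune and endothelial markers had enough signal to be tested; KRT5, KRT14, COL1A2, DCN, PTPRC and PECAM1 were not tested. A level in bulk RNA cannot tell apart fewer cells of a kind and less RNA per cell. The authors' normalised table was not used for levels, because its columns labelled replicate 4 hold the values of other scanner arrays.

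Recovery differed from heat shock in 2202 of the 10147 genes. Of these, 1235 were higher in recovery (12.2% of all genes tested) and 967 lower (9.53%). Changes of at least 1.5-fold were found in 279 genes that rose and 195 that fell, and changes of at least 2-fold in 26 and 60. The 4 recovery values and the 4 heat shock values did not overlap in 1851 of the called genes; over all genes the recovery values lay above every heat shock value in 12.7% and below every one in 11%. Non-overlap was also a condition for naming the largest changes and the largest of each course, so there it adds no support. The median change of all genes was -0.00. Replicates 1 and 2 alone, fitted with both siRNA arms, called 1020 of all genes. Replicates 3 and 4 alone, fitted in the scrambled arm only, called 574. The fits differ in the arrays that set the spread, so neither these counts nor calls lost within a pair compare the replicates. Scaling each array by its median in place of quantile normalisation left 306 higher and 151 lower calls, so that 67.0% of the calls were higher in place of 56.1%. Among the genes named here, that scaling lost the calls of HSPH1, HSP90AB1, NQO1, TXNRD1, SPRY2, DNAJB11, SYVN1, SELENOS, CKAP2L, KIF23, TTK and CCNE1. It also lost those of FEN1, HMOX1, SAFB2, POLR1B, PPAN, GALNT18, IGFBP5, SLC39A11, GUSB, VIM, GATA3 and NEFM. The calls of H4C5, MRPS35, NOP14, RNU11 and VEGFA, which are flagged at the end, were lost as well. Genes named outside the naming rules, such as FZD8, SAT1, ADCY1 and STEAP3, were not checked 1 by 1.

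The course of each gene was read from 2 comparisons that share the heat shock arrays: heat shock against untreated, with 606 genes higher (5.97%) and 578 lower (5.7%), and recovery against heat shock. Because the arrays are shared, an opposite sign in the 2 is partly built in, and the counts are a description. Genes that were higher after heat shock and lower in recovery than at heat shock (decay) numbered 390. Genes that were lower and then higher (rebound) numbered 410. A further 817 genes changed only between heat shock and recovery by these calls and were higher (late rise), and 572 were lower (late fall). In contrast, 8 genes were higher at both steps (kept rising) and 5 lower at both (kept falling). Another 208 genes that were higher after heat shock, and 163 that were lower, passed no threshold between heat shock and recovery. The median changes in recovery were -0.50 for decay, 0.50 for rebound, 0.39 for late rise and -0.35 for late fall.

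**Figure D1:**
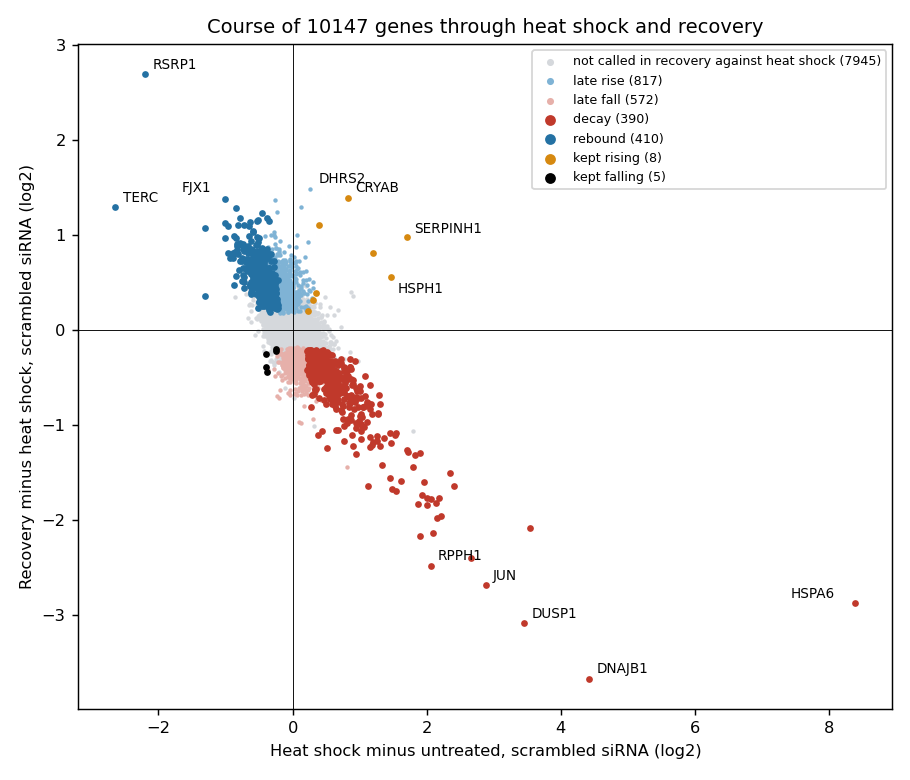
Each point is 1 of 10147 genes in the scrambled siRNA arm, with the log2 change from untreated to heat shock on the horizontal axis and the log2 change from heat shock to recovery on the vertical axis. Colours mark the 6 courses; the heat shock arrays enter both axes, and the 8 genes that kept rising lie above 0 on both axes, while DNAJB1, DUSP1 and JUN lie at the lower right.

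Recovery was also set against the untreated arrays, with which it shares no array, and here 599 genes were higher (5.9%) and 507 lower (5%). Of the 390 decay genes, 325 did not pass the threshold against untreated cells, 46 were still higher and 19 were lower than in untreated cells. Of the 410 rebound genes, 362 did not pass, 43 were higher and 5 lower. Among the 817 late rises, 301 were higher than in untreated cells, and among the 572 late falls 256 were lower. A call missed against untreated cells does not show that the level had returned. With median scaling only 45 genes were called against untreated cells. Replicates 1 and 2 alone gave 165, and replicates 3 and 4 alone 81. The calls of single genes against untreated cells were not checked in the other settings.

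Of 18 HSP70, HSP110 and HSP40 genes tested, 8 decayed, 1 was a late fall, 2 kept rising and 7 did not pass. DNAJB1, an HSP40 co-chaperone that hands substrates to HSP70, had the largest fall of all genes called in this fit. Its level was 9.89, 9.71, 9.73 and 10.07 on the recovery arrays, against 13.68, 13.62, 13.44 and 13.34 on the heat shock arrays. All 4 recovery values lay far below the lowest heat shock value, and the change was -3.67 ± 0.09, or 12.7-fold lower (limma, adjusted p = 9.8e-18, 4 against 4 arrays). It was still 0.75 higher than in untreated cells (adjusted p = 1.5e-05). HSPA6, an HSP70 gene that is nearly silent without stress, had 10.33, 10.17, 10.08 and 10.60 in recovery, against 13.68, 13.74, 12.49 and 12.75 at heat shock. The groups did not overlap, heat shock replicates 1 and 2 were higher than 3 and 4, and the change was -2.87 ± 0.24, or 7.33-fold lower (adjusted p = 1.2e-08). Within replicates 1 and 2 it was -3.46, and within replicates 3 and 4 it was -2.28. No untreated array detected HSPA6, whereas all 4 recovery arrays did.

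HSPA1A and HSPA1B, inducible HSP70 genes, are near-identical copies whose probes could each pick up both transcripts, which makes their separate values uncertain. HSPA1A had 5.78, 6.20, 5.26 and 6.09 in recovery, against 8.67, 8.83, 7.10 and 7.05 at heat shock. Again heat shock replicates 1 and 2 were the highest, and the change of -2.08 ± 0.33 (adjusted p = 8.8e-05) was -2.76 within replicates 1 and 2 and -1.40 within 3 and 4. The other members of the HSP70, HSP110 and HSP40 list that follow were picked for mention after their values were seen. HSPA1B was lower by -1.60 ± 0.07. HSPA8, the constitutive HSP70 of the cytosol, had 12.53, 12.58, 12.56 and 12.59 in recovery, against 13.57, 13.66, 13.75 and 13.73 at heat shock, a change of -1.11 ± 0.12. It went past its starting point: its recovery level was 0.73 below that of untreated cells (adjusted p = 0.00039). The median of the 18 genes of this list was -0.31, and the 9 that fell and 2 that rose are to be read beside 9.53% and 12.2% of all genes. HSPA4, an HSP110 relative, and HSPA2 did not pass, at -0.12 and 0.09.

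BAG3, a nucleotide exchange factor that links HSP70 to autophagy, also decayed. It was 10.11, 10.04, 10.11 and 10.11 in recovery, against 11.94, 11.84, 11.55 and 11.59 at heat shock, a change of -1.64 ± 0.10, or 3.12-fold lower (adjusted p = 8e-11). ZFAND2A, which codes for a stress-induced zinc finger protein that associates with the proteasome, was 9.31, 9.17, 9.17 and 9.33 in recovery, against 10.79, 11.08, 10.49 and 10.65 at heat shock. Neither gene's groups overlapped, and ZFAND2A was lower by -1.50 ± 0.12 (adjusted p = 6.2e-09). Both stayed above untreated cells, BAG3 by 0.77 and ZFAND2A by 0.85. Of the other 16 tested genes of polyubiquitin and aggregate clearance, 1 rose, 2 fell and 13 did not pass. Over all genes 12.2% were higher and 9.53% lower.

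A second set of chaperones did the opposite and went on rising after the heat had ended. SERPINH1 codes for HSP47, the collagen chaperone of the endoplasmic reticulum. Its level was 12.15, 12.04, 12.09 and 12.23 in recovery, against 11.29, 11.40, 11.02 and 10.87 at heat shock, and 9.44 on average in untreated cells. The change was 0.98 ± 0.12, or 1.97-fold higher (adjusted p = 5.7e-06). HSPA4L, an HSP110 family member, had 10.03, 10.09, 9.96 and 9.78 in recovery, against 8.99, 8.93, 8.72 and 8.80 at heat shock. None of these values overlapped, and most of the gain of HSPA4L fell into the recovery: 1.11 ± 0.09 (adjusted p = 7.5e-09), after 0.40 during heat shock. HSPB1, or HSP27, a small heat shock protein that holds unfolded proteins, had 12.42, 12.77, 12.44 and 12.71 in recovery, against 11.96, 11.95, 11.52 and 11.68 at heat shock. It rose by 0.81 ± 0.12 (adjusted p = 2.6e-05) after 1.20 during heat shock.

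CRYAB, the small heat shock protein αB-crystallin, had the largest change of this set and the least even one. It had 6.49, 6.94, 6.56 and 6.55 in recovery, against 5.80, 5.81, 4.67 and 4.71 at heat shock, and was detected on 4 recovery arrays but on 2 heat shock arrays. The lower 2 heat shock values were those of replicates 3 and 4, and the change of 1.39 ± 0.25 (adjusted p = 0.00029) was 0.91 within replicates 1 and 2 and 1.87 within 3 and 4. Its first rise, during heat shock, was 0.83 ± 0.25 (limma, adjusted p = 0.031). Untreated levels were 4.33, 4.54, 4.47 and 4.33, and no untreated array detected CRYAB. Heat shock replicates 3 and 4 lay close to these levels, and no bound above the detection limit could be given for the first rise. HSPB8, a partner of BAG3 in clearing aggregates, had 5.96, 6.24, 6.21 and 6.17 in recovery, against 5.70, 5.02, 4.71 and 5.46 at heat shock. It rose by 0.92 ± 0.16 (limma, adjusted p = 0.00031) and was a late rise, as its heat shock change of 0.23 did not pass. Its values on heat shock replicates 2, 3 and 4 lay below the lowest detected levels of those arrays, 5.49, 5.47 and 5.62. HSPH1, the HSP110 that reactivates HSP70, had 13.01, 13.21, 13.20 and 13.05 in recovery, against 12.66, 12.72, 12.46 and 12.40 at heat shock. The groups were apart by less here, with a change of 0.56 ± 0.10 (adjusted p = 0.00036), and the call was lost within replicates 1 and 2 (0.42, adjusted p = 0.053) and with median scaling (0.47, adjusted p = 0.25). HSP90AB1, the constitutive HSP90, rose by 0.31 ± 0.08 (adjusted p = 0.0099), a call lost with median scaling (adjusted p = 0.773), within replicates 1 and 2 (0.372), within 3 and 4 (0.0718) and without replicate 4 of both groups (0.0614). HSP90AA1, the inducible HSP90, did not pass at 0.13 ± 0.07, and the difference between the 2 genes was not tested.

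The 8 genes that kept rising were thus CRYAB, HSPA4L, SERPINH1, HSPB1, HSPH1, HSP90AB1, FZD8 and SAT1; FZD8, a Wnt receptor, and SAT1, a polyamine-acetylating enzyme, had the smaller changes of 0.39 and 0.20 and are named to complete the count. All 8 were higher in recovery than in untreated cells, a direction that follows from the 2 rises that define this course. Their recovery and heat shock values did not overlap. The number was 4 without heat shock replicate 1, 5 without heat shock replicate 2, and 3 with median scaling. In the list of small heat shock proteins, BAG genes and HSP47, 7 genes were tested, of which 4 rose, 2 fell and 1 did not pass, with a median of 0.81. The 10 other HSP90 and co-chaperone genes did not pass in either direction. Of the 8 subunits of the CCT chaperonin 1 fell, and of 12 mitochondrial chaperones and proteases 2 rose and 1 fell. These list counts stand beside 12.2% of all genes higher and 9.53% lower.

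**Figure D2:**
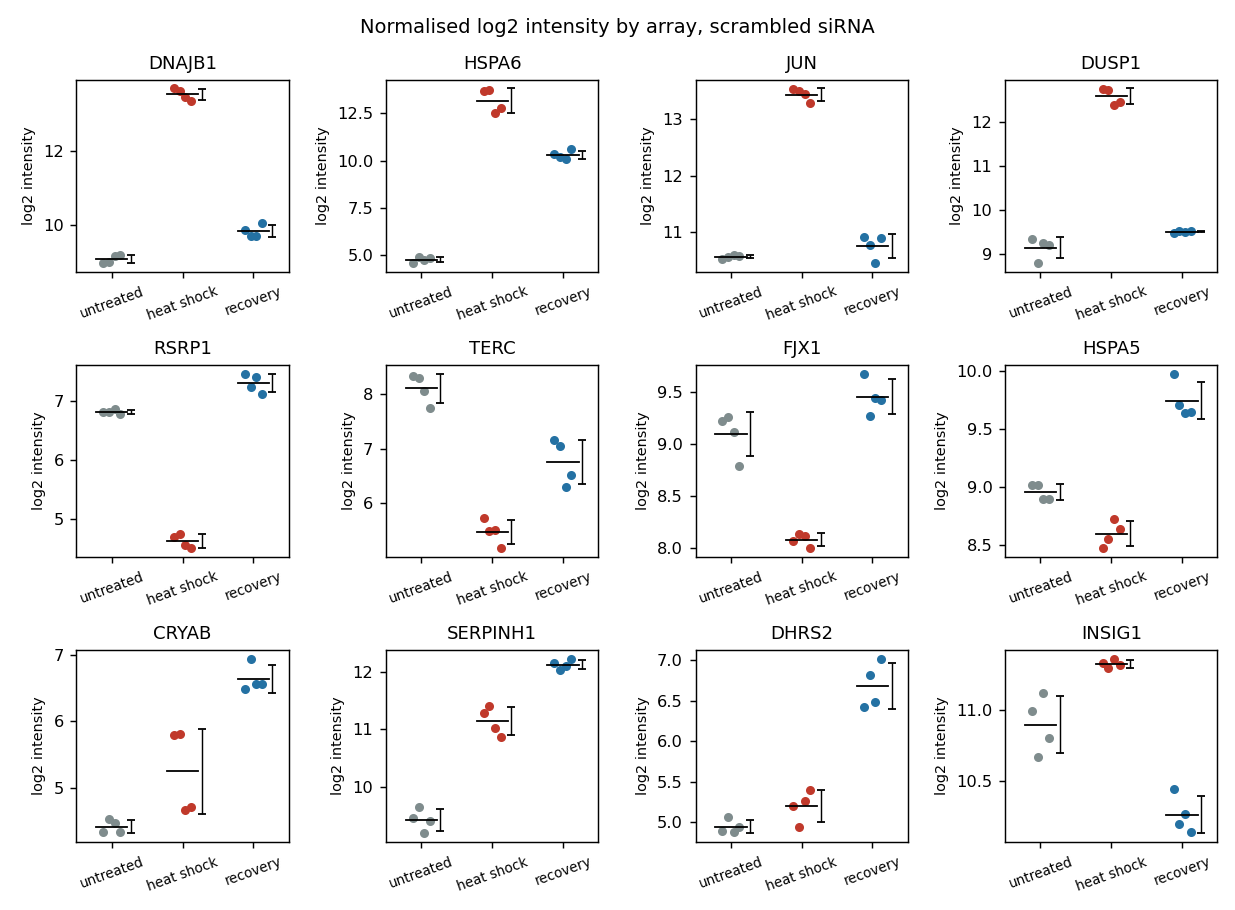
Each panel is 1 gene, with the normalised log2 intensity of the 4 arrays of each group in the scrambled siRNA arm in order of stage; horizontal lines are means and the bars beside them are standard deviations. DNAJB1, HSPA6, JUN and DUSP1 are highest at heat shock, RSRP1, TERC, FJX1 and HSPA5 are lowest there, and CRYAB and SERPINH1 are highest in recovery; for HSPA6 and CRYAB heat shock replicates 1 and 2 lie above 3 and 4.

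HSF1 binds heat shock elements, inverted repeats of GAA. RefSeq promoters of GRCh38.p14, from 250 bases before to 50 bases after the gene start, were searched on both strands for 3 such units in a row (GAANNTTC followed after 2 bases by GAA, or its reverse complement). Such a run was found in 133 of 27303 promoters, or 0.487%, and in 25 of the 8364 tested genes that have a promoter in the table, or 0.299%. It stood in 4 of 316 decay promoters (1.27%), 2 of 314 rebound promoters (0.637%) and 3 of 656 late rise promoters (0.457%). It also stood in 1 of 7 kept rising promoters, 0 of 4 kept falling promoters and 0 of 467 late fall promoters. In the HSP70, HSP110 and HSP40 list it was found in 4 of 17 promoters, or 23.5%. The shorter GAANNTTC, which is contained in it, stood in 8.86% of decay promoters and 4.47% of all tested ones. The promoters below are those of 2 genes that carry the full run and took opposite courses in recovery, with the run in capitals.
HSPA6, chr1:161524290-161524589, plus strand: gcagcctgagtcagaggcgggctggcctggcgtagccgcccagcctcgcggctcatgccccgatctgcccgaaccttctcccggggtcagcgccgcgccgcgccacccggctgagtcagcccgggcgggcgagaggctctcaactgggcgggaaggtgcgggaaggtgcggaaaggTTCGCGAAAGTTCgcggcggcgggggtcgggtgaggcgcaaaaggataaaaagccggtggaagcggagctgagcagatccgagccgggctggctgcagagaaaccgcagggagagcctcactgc
SERPINH1, chr11:75562003-75562302, plus strand: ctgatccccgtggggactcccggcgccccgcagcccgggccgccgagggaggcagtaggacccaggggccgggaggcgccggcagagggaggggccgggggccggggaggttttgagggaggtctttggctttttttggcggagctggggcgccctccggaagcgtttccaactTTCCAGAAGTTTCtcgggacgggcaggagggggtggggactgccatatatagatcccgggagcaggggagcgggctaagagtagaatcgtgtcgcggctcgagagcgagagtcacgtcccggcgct
The run starts 74 bases before the gene start in HSPA6, which fell by 2.87 in recovery, and 76 bases before it in SERPINH1, which rose by 0.98. The 3-unit run was not in these windows of DNAJB1, DUSP1, JUN, RSRP1, HSPA4L, HSPB1 or HSPH1, whereas JUN and HSPB1 each hold 1 GAANNTTC. A match is a description of letters and not a tested site.

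Of 8 immediate early genes of the AP-1 and ATF3 list, 6 decayed and 2 did not pass, beside 9.53% of all genes lower. JUN, an AP-1 subunit, was 10.91, 10.77, 10.45 and 10.89 in recovery, against 13.53, 13.50, 13.44 and 13.29 at heat shock. The recovery values were all more than 2 units below the heat shock values, and the change was -2.69 ± 0.09, or 6.44-fold lower (adjusted p = 1.3e-15). Against untreated cells the level was 0.19 higher, which did not pass (adjusted p = 0.17). FOS, the AP-1 partner of JUN, was 5.24, 5.22, 5.25 and 5.24 in recovery, where 1 of 4 arrays detected it, against 7.47, 7.34, 7.01 and 6.96 at heat shock. ATF3, a stress-induced repressor of the same family, had 9.25, 9.09, 9.22 and 9.35 in recovery, against 11.31, 11.24, 10.83 and 10.83 at heat shock. Both were apart on all arrays, with changes of -1.96 ± 0.14 for FOS and -1.82 ± 0.12 for ATF3. MAFF, at 0.03, was among those that did not pass.

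Of 21 other early genes tested (EGR, KLF, NR4A and others), 13 decayed, 3 were late falls, 1 rose and 4 did not pass. KLF10, a repressor induced by TGF-beta, had 6.18, 5.93, 6.00 and 5.82 in recovery, against 8.32, 8.20, 8.06 and 7.89 at heat shock, a change of -2.13 ± 0.15 (adjusted p = 1.1e-09). IER5, an HSF1 cofactor, fell by 1.78 and KLF6 by 1.45. The median of the 21 was -0.80, and 9.53% of all genes were lower and 12.2% higher. The gene that rose was MYC, which drives growth and ribosome production: it was 10.19, 10.12, 10.32 and 10.21 in recovery, against 9.11, 9.19, 9.46 and 9.49 at heat shock. MYC had been lower after heat shock by -0.73 and was then higher by 0.90 ± 0.13 (adjusted p = 2.4e-05), without passing against untreated cells (0.16). With median scaling 11 of the 21 fell and MYC still rose.

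DUSP1, the phosphatase that shuts off stress-activated MAP kinases, was 9.48, 9.52, 9.49 and 9.51 in recovery, against 12.76, 12.73, 12.40 and 12.47 at heat shock. The recovery arrays were nearly level with each other, and the fall was the second largest of all, -3.09 ± 0.13, or 8.5-fold (adjusted p = 1.5e-13). SPRY2, an inhibitor of receptor tyrosine kinase signalling, fell by 0.69. Among 11 phosphatase and Sprouty genes 4 fell, 1 rose and 6 did not pass, beside 9.53% of all genes lower and 12.2% higher. With median scaling 1 of the 11 fell. DUSP3 and SPRY1 did not pass, at -0.04 and -0.02.

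Of 16 feedback genes of TGF-beta, BMP, Notch and YAP signalling tested, 9 fell, 1 rose and 6 did not pass. Among all genes tested 9.53% fell and 12.2% rose. ID1, which blocks differentiation factors, was 8.72, 8.94, 8.94 and 8.99 in recovery, against 11.06, 10.89, 10.74 and 10.82 at heat shock. SMAD7, an inhibitor of TGF-beta receptors, was 7.49, 7.53, 7.58 and 7.71 in recovery, against 9.42, 9.63, 9.27 and 9.32 at heat shock. HES1, a Notch target and repressor, had 6.36, 6.50, 6.22 and 6.77 in recovery, against 8.37, 8.16, 8.05 and 8.24 at heat shock. In each the groups were more than 1 unit apart, with changes of -1.98 ± 0.10, -1.83 ± 0.09 and -1.74 ± 0.10. HES4, of the same family as HES1, took the reverse course. It had 13.27, 13.04, 13.07 and 13.60 in recovery, against 11.94, 12.03, 12.24 and 12.43 at heat shock. Its change was 1.09 ± 0.13 (adjusted p = 2.6e-06) after -0.65 during heat shock, and it ended 0.44 above untreated cells (adjusted p = 0.035).

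Of 10 genes that hold back growth under energy stress, 4 fell, 3 rose and 3 did not pass. With median scaling 2 fell and 1 rose, and the shares over all genes in the main fit were 9.53% lower and 12.2% higher. DDIT4 (REDD1), which inhibits the growth kinase complex mTORC1, was 9.49, 9.34, 9.48 and 9.78 in recovery, against 11.75, 11.75, 12.10 and 12.09 at heat shock. The change was -2.40 ± 0.10, or 5.28-fold lower (adjusted p = 2.6e-13). TXNIP, an arrestin-like protein that limits glucose uptake, was 6.65, 6.46, 6.01 and 6.49 in recovery, against 8.39, 8.52, 8.08 and 7.98 at heat shock, a change of -1.84 ± 0.16. Both were lower on every recovery array, and neither passed against untreated cells. DEPP1, a FOXO target, was 5.93, 5.80, 5.71 and 6.10 in recovery, against 5.06, 5.37, 5.51 and 5.31 at heat shock, where 1 of 4 arrays detected it. It rose by 0.57 ± 0.13, a call lost within replicates 3 and 4 (0.50, limma, adjusted p = 0.131). PPP1R15A (GADD34), which restores translation by dephosphorylating eIF2α, fell by 1.32 and MCL1, a short-lived survival protein, by 0.80. BHLHE40, a repressor in the circadian clock, fell by 1.17, CDKN1B, a cell-cycle inhibitor, by 0.66, and ADM, a hypoxia-induced peptide hormone, by 0.82. These last genes are the largest called falls of other lists. Of 13 apoptosis regulators 1 rose, 1 fell and 11 did not pass. Of 13 circadian and glucocorticoid genes 0 rose and 3 fell, and of 9 cyclins and cell-cycle inhibitors 0 rose and 3 fell. Over all genes 12.2% were higher and 9.53% lower.

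How much of the heat shock change was left was computed for the genes whose heat shock change was called and at least 1 on the log2 scale, as the recovery change over the heat shock change, both against untreated cells. Of these genes 74 had risen, and a median of 17.6% of the log2 change was left (quartiles 4.21% and 31.5%). Under 25% was left in 43 of them, over 50% in 6 and over 100% in 3. DNAJB1 kept 17%, DUSP1 10.5%, JUN 6.64%, DDIT4 9.96% and SMAD7 2.18%, whereas BAG3 kept 32.0%, ZFAND2A 36.0% and HSPA6 65.8%. The value of HSPA6 rests on an untreated level that no array detected. The 3 genes over 100% were HSPH1, SERPINH1 and HSPB1, at 138%, 157% and 168%. In 12 genes the estimated share was below 0, among them RPPH1 at -20.5% and CLK1 at -7.33%. A share below 0 does not by itself show a level that differs from untreated cells. CLK1 did not pass against untreated cells, at -0.11 (limma, adjusted p = 0.48). Of the 7 genes that had fallen by at least 1, the median left was 3.11%.

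**Figure D3:**
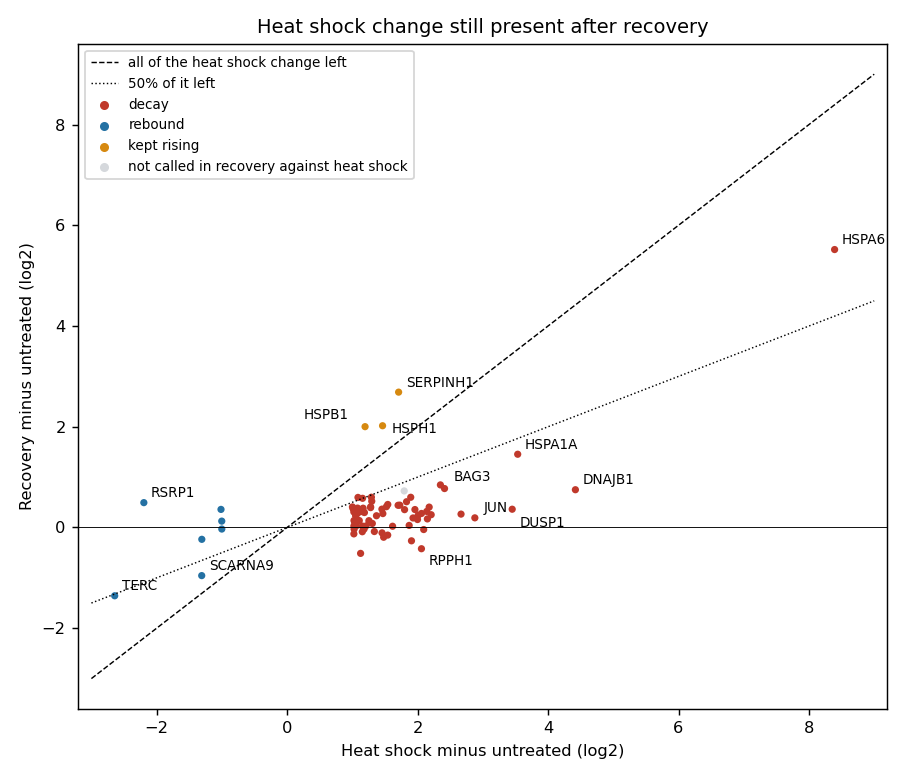
Each point is a gene whose heat shock change in the scrambled arm was called and at least 1 on the log2 scale, with that change on the horizontal axis and the recovery change, both against untreated cells, on the vertical axis. Most points lie between the zero line and the dotted line for 50% left; SERPINH1, HSPB1 and HSPH1 lie above the dashed line for all of the change left, and HSPA6 lies between the lines. The untreated arrays enter both axes.

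RSRP1, a gene for an arginine- and serine-rich protein, rebounded. It had 7.46, 7.24, 7.42 and 7.12 in recovery, against 4.68, 4.75, 4.56 and 4.50 at heat shock, where no array detected it. All recovery arrays were far above all heat shock arrays. The rise was at least 3.48-fold against the detection limit (adjusted p = 2.9e-16). It had been detected in untreated cells at 6.82 on average, and in recovery it was 0.49 above that (adjusted p = 0.00041). The CLK kinases, which phosphorylate SR splicing proteins and splice their own transcripts in response to temperature, moved the other way. CLK1 had 8.96, 9.0, 8.79 and 9.08 in recovery, against 10.53, 10.61, 10.55 and 10.38 at heat shock, a change of -1.56 ± 0.09 (adjusted p = 1.7e-11). CLK4 fell by 0.94 and CLK3 by 0.63. Among 23 CLK, SRPK and SR genes 5 fell, 3 rose and 15 did not pass, beside 9.53% of all genes lower and 12.2% higher. With median scaling 3 fell and 1 rose. SRSF1, at 0.10, and SRSF3, at 0.07, did not pass. Which splice forms of these genes the probes detect was not tested.

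Structured non-coding RNAs split between both courses. TERC, the RNA template of telomerase, had 7.15, 7.04, 6.30 and 6.52 in recovery, against 5.72, 5.48, 5.51 and 5.17 at heat shock, where 2 of 4 arrays detected it. The groups did not overlap, and the change was 1.29 ± 0.16 (adjusted p = 5.1e-06). TERC was one of the 5 rebounds that stayed below untreated cells, at a difference of -1.36 (adjusted p = 1.4e-05). RPPH1, the RNA of ribonuclease P, had 7.03, 6.91, 6.73 and 6.82 in recovery, against 9.93, 10.01, 8.77 and 8.71 at heat shock. Its heat shock replicates 1 and 2 were more than 1 unit above 3 and 4, and the change of -2.48 ± 0.28 (adjusted p = 1.4e-06) was -3.0 within the first pair and -1.96 within the second. RN7SK, which holds the elongation factor P-TEFb inactive, had 8.94, 8.89, 8.44 and 9.04 in recovery, against 10.07, 10.22, 9.15 and 9.42 at heat shock. This fall of 0.89 was lost within replicates 3 and 4 (-0.54, adjusted p = 0.15). Of 8 such RNAs tested 3 rose, 3 fell and 2 did not pass, one of them RN7SL1 at 0.08. The shares over all genes were 12.2% higher and 9.53% lower.

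Further rebounds were single genes of mixed function. FJX1, related to the fly gene four-jointed, had 9.68, 9.27, 9.45 and 9.43 in recovery, against 8.07, 8.14, 8.12 and 8.0 at heat shock, and rose by 1.37 ± 0.10 (adjusted p = 1.1e-09). PCDH7, a protocadherin, had 10.42, 10.32, 10.17 and 10.33 in recovery, against 9.0, 8.99, 9.09 and 9.01 at heat shock. It rose by 1.29 ± 0.09, with all 3 of its tested probes higher. FJX1 and PCDH7 were both above untreated cells in recovery, by 0.36 and 0.45. ZFTRAF1 rose by 1.23 and DGCR8, the RNA-binding partner of DROSHA in microRNA processing, by 0.73 ± 0.11 (adjusted p = 4.4e-05). Iron transport genes were among the rebounds too. SLC11A2, an iron transporter, was 10.83, 10.61, 10.68 and 10.61 in recovery, against 9.81, 9.85, 10.04 and 9.83 at heat shock, and rose by 0.80. SLC40A1, the iron exporter ferroportin, rose to detection on all 4 recovery arrays, at least 1.27-fold over heat shock arrays of which none detected it. Of 8 iron genes 4 rose, 1 fell and 3 did not pass, beside 12.2% of all genes higher and 9.53% lower. With median scaling 2 rose and 0 fell. HMOX1, which releases iron from haem, was the one that fell in the main fit, by 0.40.

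Of 15 chaperones of the endoplasmic reticulum, 6 rose in recovery, 0 fell and 9 did not pass, with a median of 0.21. HSPA5, the reticulum's HSP70 known as BiP, had 9.98, 9.71, 9.63 and 9.65 in recovery, against 8.47, 8.56, 8.72 and 8.64 at heat shock. The groups did not overlap, with a change of 1.14 ± 0.09, or 2.21-fold higher (adjusted p = 3.5e-09). HSPA5 had been lower after heat shock by -0.36 and ended 0.78 above untreated cells (adjusted p = 7.2e-06). DNAJB11, its co-chaperone, rose by 0.30. CALR, at -0.00, and PDIA4, at 0.14, did not pass. Among genes of the unfolded protein response and of degradation from the reticulum, 6 of 13 rose and 0 fell. SYVN1, a ubiquitin ligase there, was 9.60, 8.95, 9.23 and 9.0 in recovery, against 8.57, 8.67, 8.46 and 8.52 at heat shock, and rose by 0.64. WFS1, a membrane protein, was 10.34, 10.12, 10.27 and 10.41 in recovery, against 9.70, 9.54, 9.66 and 9.79 at heat shock, and rose by 0.61. Neither gene's groups overlapped. SELENOS rose by 0.49, and XBP1, a main transcription factor of this response, did not pass at 0.16. In the main fit 12.2% of all genes were higher and 9.53% lower. Median scaling kept 1 call in each of the 2 lists, with list medians of 0.19 and 0.27.

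Targets of ATF4, the factor that answers amino acid shortage, were split. SLC7A5, a transporter of large neutral amino acids, was 12.58, 12.41, 12.49 and 12.66 in recovery, against 11.78, 11.82, 11.79 and 11.92 at heat shock, a rise of 0.71 ± 0.08 (adjusted p = 1.9e-06). SLC7A11, the cystine transporter, had 5.45, 5.60, 5.53 and 5.98 in recovery and no detection at heat shock, so that its rise was at least 1.09-fold. VLDLR rose by 0.52, and ATF4 itself did not pass at -0.09. In this list of 19 genes 6 rose and 3 fell, and with median scaling 3 rose and 1 fell. Of 14 targets of NRF2, the regulator of antioxidant defence, 4 rose and 2 fell; with median scaling 1 rose and 0 fell. NQO1, a quinone reductase, rose by 0.46 and TXNRD1, thioredoxin reductase, by 0.38, and both calls were lost with median scaling (adjusted p = 0.108 and 0.324 by limma). The shares over all genes were 12.2% higher and 9.53% lower.

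Late rises passed no threshold at heat shock and were higher afterwards. DHRS2, a mitochondrial short-chain dehydrogenase, had 6.42, 6.81, 6.48 and 7.02 in recovery, against 5.20, 4.93, 5.27 and 5.39 at heat shock. It was detected on all 4 recovery arrays and on none of the heat shock or untreated arrays, so that its change of 1.48 ± 0.15 (adjusted p = 3e-07) stands for at least a 2.25-fold rise. EMILIN2, an extracellular matrix glycoprotein, had 8.41, 8.03, 7.87 and 8.36 in recovery, against 6.66, 6.80, 6.62 and 7.13 at heat shock. It was higher on every recovery array, by 1.37 ± 0.12 (adjusted p = 4.3e-08), and 1.10 above untreated cells. ABCA1, which exports cholesterol from cells, had 6.05, 6.12, 6.10 and 6.18 in recovery, against 4.92, 4.70, 4.88 and 4.99 at heat shock, where no array detected it. Its change of 1.24 ± 0.12 (adjusted p = 1.1e-07) was at least 1.52-fold. JSRP1, a junctional protein of the sarcoplasmic reticulum in muscle, was detected in recovery and in neither other scrambled group, at least 1.4-fold higher, and the antisense RNA MORF4L2-AS1 rose by 1.03 ± 0.10.

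Smaller late rises were spread over the surface and metabolism. EPCAM, an epithelial adhesion molecule, was 7.10, 6.97, 7.03 and 6.89 in recovery, against 6.33, 6.19, 6.43 and 6.22 at heat shock, and rose by 0.70 ± 0.09 (adjusted p = 5.6e-06). EPCAM is also a marker of other epithelia; the 3 tested markers of that list had a mean level of 6.94 to 7.08 on the recovery arrays and 6.72 to 6.89 on the heat shock arrays, KRT5, KRT14 and IVL had too little signal, and a part of other cells in this result was not tested. Of 36 adhesion and matrix genes 8 rose and 2 fell, against 12.2% and 9.53% of all genes, and with median scaling 3 rose and 1 fell. ENO2, an enolase, had 7.59, 7.49, 7.61 and 7.58 in recovery, against 6.87, 6.87, 6.57 and 6.82 at heat shock, a rise of 0.78 ± 0.11. Glycolysis and hypoxia genes were otherwise divided, with 5 of 23 higher and 5 lower, and 2 and 1 with median scaling.

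Of 51 G2/M genes 17 rose and 0 fell, with a median of 0.20 and a highest value of 0.41. CKAP2L, a spindle protein, had 9.52, 9.78, 9.65 and 9.66 in recovery, against 9.16, 9.21, 9.22 and 9.39 at heat shock, a change of 0.41 ± 0.08 (adjusted p = 0.001). TTK, the kinase of the spindle checkpoint, rose by 0.39 and KIF23, a kinesin of cell division, by 0.41, although the call of KIF23 was lost when its probes were averaged. None of the 51 was called with median scaling, where their median was 0.15. CDK1 and CCNB1 did not pass, at 0.16 and 0.20. Of 36 genes of DNA replication 5 were higher and 4 lower, near the 12.2% and 9.53% of all genes, and 0 were called either way with median scaling. CCNE1, which starts S phase, fell by 0.52 and FEN1, a flap endonuclease, rose by 0.31.

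Of 18 genes of cholesterol synthesis and uptake tested, 12 fell in recovery, 0 rose and 6 did not pass, with a median of -0.46, against 9.53% of all genes lower. INSIG1, a sterol sensor of the pathway, was 10.44, 10.19, 10.27 and 10.14 in recovery, against 11.33, 11.30, 11.36 and 11.32 at heat shock. MSMO1, a sterol oxidase, had 9.39, 9.37, 9.15 and 9.04 in recovery, against 10.38, 10.53, 10.16 and 10.08 at heat shock. IDI1, which isomerises the isoprenoid building block, had 5.80, 5.90, 5.84 and 6.19 in recovery, against 7.10, 7.10, 6.83 and 6.59 at heat shock. Every recovery value was below every heat shock value in all 3 genes. Their changes were -1.07 ± 0.09, -1.05 ± 0.12 and -0.97 ± 0.19, and each ended below untreated cells, at differences of -0.64, -0.41 and -0.88. With median scaling 6 of the 18 fell and 0 rose, with a median of -0.41. At heat shock 3 of these 18 had been higher than in untreated cells and 0 lower.

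Other late falls were single genes of mixed function. SULF1, which removes sulfate from heparan sulfate at the cell surface, was 5.95, 5.79, 5.51 and 5.86 in recovery, against 6.80, 6.76, 6.65 and 6.85 at heat shock, a change of -0.98 ± 0.10, or 1.98-fold lower (adjusted p = 1.9e-07). SLC46A2, a solute carrier, was detected on no recovery array and on all heat shock arrays, at least 1.64-fold lower. N4BP2L2 fell by 0.80 with its brightest probe, but its 2 probes had opposite signs and their mean was not called. ZNF436 was at least 1.31-fold lower; it was detected on 2 heat shock arrays and no recovery array. Of 22 replication-dependent histone genes 6 fell and 0 rose; of these H3C12 was detected on 3 heat shock arrays and no recovery array, at least 1.2-fold lower. Of 47 ribosome biogenesis genes 6 fell and 1 rose. For both lists the shares over all genes were 9.53% lower and 12.2% higher, and the falls in the ribosome biogenesis list were near that share. POLR1B, a subunit of RNA polymerase I, had 6.60, 6.64, 6.90 and 6.49 in recovery, against 7.28, 7.30, 7.37 and 7.05 at heat shock, and fell by 0.59 ± 0.11, while PPAN rose by 0.48. No gene of the ribosome biogenesis list and 1 of the histone list was called with median scaling.

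Among proteins of nuclear stress bodies and the hnRNP family, which bind Sat III RNA or nascent transcripts, 6 of 23 fell and 0 rose. Their median was -0.09, and 9.53% of all genes were lower and 12.2% higher. HNRNPDL had 10.21, 9.82, 10.12 and 10.28 in recovery, against 10.98, 10.90, 10.73 and 10.58 at heat shock, and fell by 0.69 ± 0.11 while it stayed 0.60 above untreated cells. SAFB2, a scaffold attachment factor, was 8.83, 8.83, 8.60 and 8.74 in recovery, against 9.24, 9.31, 9.07 and 9.35 at heat shock, a change of -0.49 ± 0.08. HSF1 itself was detected on 1 array of each group and did not pass, at -0.14 ± 0.23. With median scaling 1 of the 23 was called lower.

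The 5 genes that kept falling were GALNT18, IGFBP5, SLC39A11, ADCY1 and STEAP3. GALNT18, a glycosyltransferase, had 7.54, 7.45, 7.58 and 7.51 in recovery, against 7.86, 7.83, 8.04 and 8.14 at heat shock, and 8.35 on average in untreated cells. It fell by 0.45 ± 0.09 (adjusted p = 0.0015) and by 0.82 against untreated cells. IGFBP5, which binds insulin-like growth factors, had 7.97, 7.84, 7.82 and 7.91 in recovery, against 8.13, 8.15, 8.13 and 8.15 at heat shock, and its call of -0.26 ± 0.08 was lost without recovery replicate 3. SLC39A11 fell by 0.20, a call lost without any 1 of 7 of the 8 arrays. The number of genes in this course was 1 to 3 when single arrays were left out, so it rests on the full set of arrays.

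Large housekeeping groups held few calls. Of 75 cytosolic ribosomal protein genes 1 rose and 5 fell, of 38 proteasome subunits 0 rose and 1 fell, and of 68 respiratory chain and ATP synthase subunits 0 rose and 3 fell, each against 12.2% and 9.53% of all genes. Their medians were -0.01, -0.04 and -0.05. Among 9 reference genes GUSB rose by 0.36, and ACTB and GAPDH did not pass, at -0.07 and -0.02. Numbered zinc finger genes, most of them repressors, held more calls, with 28 of 274 higher and 43 lower, beside 12.2% and 9.53% of all genes. At heat shock 56 of the 274 had been higher and 13 lower, beside 5.97% and 5.7%. By course 35 decayed and 10 rebounded, beside 390 and 410 of all 10147 genes. With median scaling 10 were higher and 6 lower in recovery. Of the 3 metallothionein genes none passed.

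**Figure D4:**
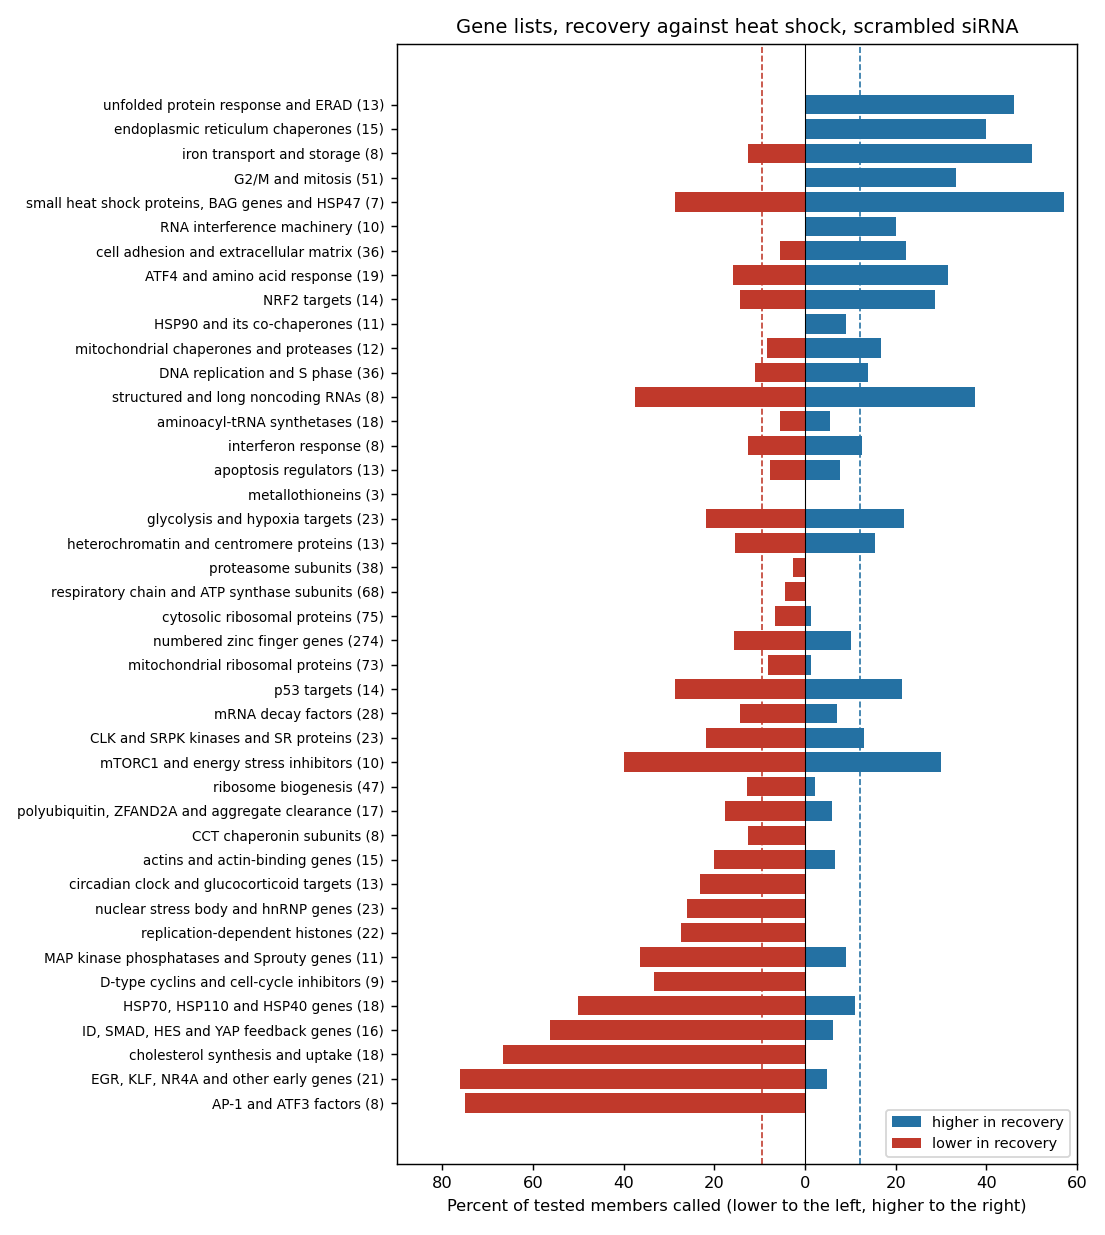
Bars give the percentage of each gene list's tested members that were called lower (left) or higher (right) in recovery than at heat shock, with the number tested in brackets; dashed lines are the percentages over all genes, 9.53% lower and 12.2% higher. AP-1, early gene and cholesterol lists reach furthest to the left, and the list of small heat shock proteins reaches furthest to the right. The lists were drawn up with earlier results of these data known.

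The same step in the Sat III siRNA arm, on 7 other arrays, gave 1193 genes higher in recovery (11.8%) and 989 lower (9.75%). Of the genes called in the scrambled arm 1481 were called in the same direction in the Sat III arm, which is 67.3% of the scrambled calls and 67.9% of the Sat III calls, and 2 were called in the opposite direction. The estimate had the same sign for 2173 of the 2202. Over all genes the changes of both arms had a Pearson correlation of 0.869, as a description. DNAJB1 changed by -3.67 in the scrambled arm and -4.18 in the Sat III arm, JUN by -2.69 and -2.97, and TERC by 1.29 and 1.71. For the difference between arms itself no gene passed in the limma fit (0 of 10147, 0%), while 349 had an unadjusted p under 0.05. The smallest adjusted p, 0.071, belonged to HSPH1, which changed by 0.56 in the scrambled arm and -0.32 in the Sat III arm. Leaving out heat shock replicate 2 or recovery replicate 1 of the scrambled arm gave 2 genes for this difference.

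**Figure D5:**
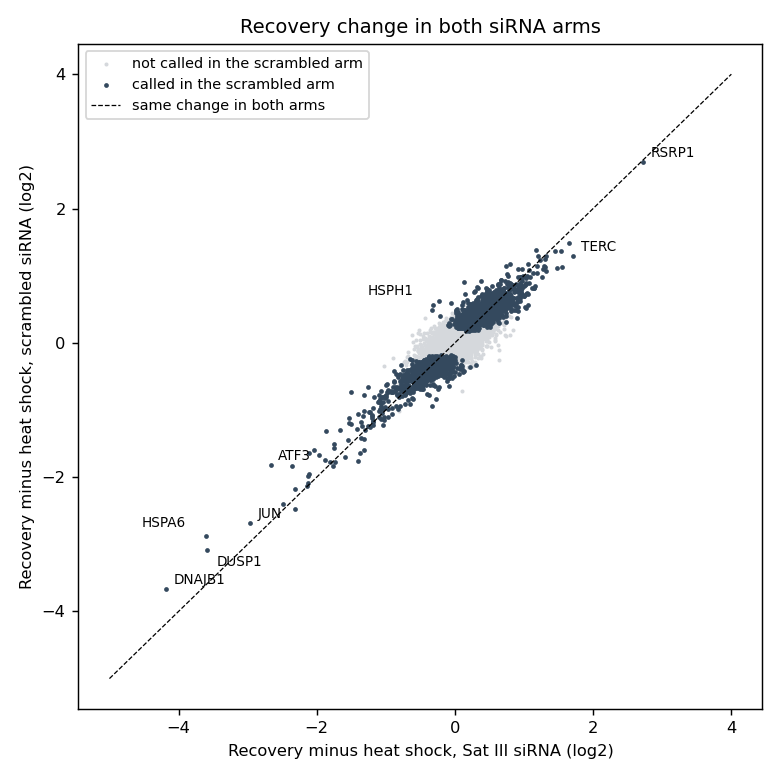
Each point is 1 of 10147 genes, with the log2 change from heat shock to recovery in the Sat III siRNA arm on the horizontal axis and in the scrambled arm on the vertical axis; dark points were called in the scrambled arm. The dashed line marks the same change in both arms; RSRP1 lies on it, JUN, DUSP1 and DNAJB1 lie a little above it, and HSPH1 lies above it, with changes of opposite sign.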

How the data were processed

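Total RNA of HEK293T cells was amplified to biotin-labelled cRNA from 300 ng per array, per the labels' protocols, and read on 22 Illumina bead arrays; no source used here names the scanner software or a genome build. The table the authors deposited holds probe intensity values on a linear scale, not normalised per its values, and a detection p-value for each of 48803 probes, per the file headers. The second deposited table was used only to check labels. Its values kept the rank order of the scanner column of the same label (rank correlation above 0.9999) for 15 of 22 columns. The 6 columns labelled replicate 4 matched another scanner array, and the column of Sat III recovery replicate 3 matched none. Its log2 scale was taken from the values the authors deposited, and its normalisation is not given.

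From the intensities, neqc of limma 3.58.1 in R 4.3.3 subtracted background (normexp, offset 16, with the negative controls inferred from the detection p-values), applied quantile normalisation and took log2. Probes with a detection p-value under 0.01 on at least 3 of the 22 arrays were kept (15324). A platform table named 28098 probes with 1 symbol and 20705 with none or several, and 28059 of the symbols were updated through RefSeq. Of the kept probes 13097 had a name, and the brightest probe stood for each of 10147 genes. A limma fit with 6 group means over all 22 arrays, eBayes and Benjamini-Hochberg adjustment at 0.05 gave every contrast, the difference between arms included. The number of arrays limits the precision. The fit was tested on simulated data.

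The members, gene lists and rules were chosen with earlier results of these data known. Named were the 3 markers DNAJB1, RSRP1 and JUN, and the 6 largest rises and 6 largest falls among called genes without overlap. Up to 5 of the largest of each course, again without overlap, and the largest called members of each list were also named. Other genes are given as examples that did not pass, or are said to be picked later. Alternatives covered normalisation, background, filter, probe choice, the groups fitted, blocks, replicates 1 and 2 or 3 and 4 alone and single arrays.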

Additional observations from a re-analysis of the deposited data

Results flagged for a closer look

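In 274 groups of 4 arrays (the recovery and the heat shock group of each named gene), 11 had 1 array farther from the others than Dixon's critical value for the gap over the whole range (the ratio in brackets); chance alone gives about 1 in 20 groups. Of these, 5 were heat shock replicate 3, 3 recovery replicate 2, 2 heat shock replicate 4 and 1 recovery replicate 1. In recovery, BAG3 was lowest on replicate 2, at 10.04 against 10.11 on the other arrays (0.959), CRYAB was highest on replicate 2, at 6.94 against 6.49 to 6.56 (0.834), TTK was highest on replicate 2, at 9.97 against 9.77 to 9.80 (0.872), and MRPS35 was lowest on replicate 1, at 8.09 against 8.31 to 8.33 (0.884). On heat shock replicate 3, H4C5 was highest, at 5.77 against 5.55 to 5.57 (0.88), SLC11A2 was highest, at 10.04 against 9.81 to 9.85 (0.838), and MCL1 was lowest, at 8.67 against 8.78 to 8.80 (0.854). On the same array NQO1 was lowest, at 7.15 against 7.42 to 7.43 (0.957), and RNU11 was lowest, at 5.75 against 6.33 to 6.43 (0.846). On heat shock replicate 4, NOP14 was highest, at 9.71 against 9.43 to 9.45 (0.929), and VEGFA was highest, at 7.62 against 6.98 to 7.06 (0.865).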

How the results depend on the processing

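Of the 137 named genes 59 kept their direction and call in all 20 other settings, and no setting reversed a direction. Median scaling left 306 genes higher, 151 lower, 251 called at heat shock, 45 in recovery against untreated cells and 414 in the Sat III arm, with 90 decays, 87 rebounds, 3 that kept rising, 0 that kept falling, 216 late rises and 61 late falls; 69 named genes lost their call, and the median heat shock change of all genes was -0.12. Replicates 1 and 2 alone gave 607 higher, 413 lower, 567, 165 and 1122 in the same order, with 203 decays, 161 rebounds, 4, 0, 442 late rises and 210 late falls. Replicates 3 and 4 alone, in the scrambled arm, gave 320 higher, 254 lower, 244 and 81, with 112 decays, 54 rebounds, 5, 0, 261 late rises and 142 late falls. These subsets hold fewer arrays, and only the fit of replicates 1 and 2 took in both arms, so their counts are not like for like. The genes that kept rising were 5 with no filter, 5 without replicate 4 of both groups and 14 with the replicate block. Those that kept falling were 3 with no filter, 3 in the fit of the 3 scrambled groups, 3 with the mean of probes and 1 without replicate 4 of both groups, where late falls were 358. The difference between arms had 1 gene with no background correction, 1 with the stricter filter and 1 with the replicate block. The cause of these shifts was not tested.

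Leaving out 1 array gave 1009 to 1166 genes higher and 755 to 894 lower, 907 to 1185 at heat shock, 793 to 1095 against untreated, 2126 to 2221 in the Sat III arm and 0 to 2 for the difference. Decays were 311 to 366, rebounds 300 to 390, late rises 636 to 775, late falls 401 to 526, kept rising 4 to 8 and kept falling 1 to 3. Arrays of the same number had deviations that correlated at 0.05, 0.14, 0.17 and 0.25. Recovery replicates 1 and 2 each correlated best with the heat shock array of the other number, and replicates 3 and 4 with their own. Correlations were positive within replicates 1 and 2 and within 3 and 4, and negative between these sets (-0.04 to -0.16). The numbers were not taken to pair arrays, and the main fit has no block for this structure. A block of replicates 1 and 2 against 3 and 4 gave 1383 genes higher and 1109 lower. With the replicate block 1404 genes were higher and 1149 lower, and 0 named genes lost their call. Signal near background limits HSPA6, HSPA1A, FOS and CRYAB in untreated cells and RSRP1, DEPP1 and HSPB8 at heat shock.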
